A study of Mus musculus with 2 samples.

Results

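The genes described here encode the mitochondrial ribosome and the machinery that carries proteins into mitochondria. They were found by name: a gene was taken when the platform annotation paired a probe set with it alone and its symbol began with Mrpl or Mrps and a digit (mitochondrial ribosomal proteins), with Timm and a digit (translocases of the inner membrane) or with Tomm and a digit (translocases of the outer membrane). The rule gave 96 genes of the 20422 with a value: 74 mitochondrial ribosomal protein genes, of which 46 were Mrpl and 28 were Mrps genes, 12 Timm genes and 10 Tomm genes. They were read by 589 probe sets, with a median of 5 per gene and a range of 1 to 17.

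Adult mouse Müller glia (MG), glial cells that span the whole retina, were isolated with a fluorescence-activated cell sorter by their brightest reporter signal, and gene expression was read on whole-transcript Affymetrix arrays. One array, the control, held RNA from 12 undamaged retinas. The other held RNA from 10 retinas of mice exposed to white light of 10000 lux for 8 hours and analysed a week later. The study marked MG with tdTomato through a tamoxifen-inducible Cre recombinase under the Rlbp1 promoter, on an S129 background. Its light damage mice were also crossed to albino Swiss Webster mice that carry an Rpe65 variant, and a Hes5-GFP reporter line was crossed to the same strain. Which of these crosses supplied the control array is not given in the sources used here, so strain background and light damage cannot be told apart. There was 1 array per condition, each from pooled retinas, so no value has a replicate check, no test between conditions was possible and no p-value is given.

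Mitochondria keep a small genome that encodes a few subunits of the respiratory chain, and a ribosome of their own translates them. All proteins of that ribosome are encoded in the nucleus, made in the cytosol and imported. The TOM complex (translocase of the outer membrane) receives nearly all of these precursors. The TIM23 complex then moves proteins with a presequence into the matrix, and the TIM22 complex inserts carrier proteins into the inner membrane. Small Tim chaperones guide such carriers across the space between both membranes.

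Log2 levels were available for 241576 probe sets, and 80.6% of them on the control and 80.1% on the light damage array stood at 5 or more. The MG label was checked on 12 MG markers. Control levels of these markers ran from 7.36 to 13.4 (median 11.5), and levels after light damage from 7.42 to 13.1 (median 11.2). Their median difference was −0.19, with Rlbp1 at −0.67 and Sox9 at 0.88. Markers of another cell type moved with the comparison. Of 13 listed rod photoreceptor genes, 12 had a value, and all 12 lay below 0 after light damage. Their median level was 11.9 on the control and 10.7 on the light damage array. On the control array the rod median thus lay above the MG marker median, so the RNA was not shown to come from MG alone. Cone markers had a median difference of −1.08 (6 of 7 below 0). Bipolar markers were at a median of −0.27 (7 genes), ganglion and amacrine markers at −0.21 (10), microglia markers at −0.10 (6), and endothelial and pericyte markers at 0.31 (7, all above 0). Xist, which marks the inactive X chromosome of females, stood at 9.79 in the control and 4.85 after light damage, in its only probe set. Judged by this probe set, the arrays differed in their share of RNA from females, so sex and light damage cannot be told apart. The part of rod RNA, or of the sex of the mice, in the values below was not tested.

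The comparison asked whether genes of the mitochondrial ribosome and of protein import stood at other levels in sorted MG samples after light damage. It also asked whether the 3 groups of genes differed. A gene's difference is the median over its probe sets of light damage minus control on the log2 scale. Most members lay close to 0. The median difference was −0.12 for the ribosomal protein genes (SD over 74 genes 0.45), −0.15 for the Timm genes (SD over 12 genes 0.49) and 0.01 for the Tomm genes (SD over 10 genes 0.35), against −0.03 over the 16541 genes whose mean level reached 5 (SD 0.50). With 1 array per condition, whether these medians differ was not tested. The mean level of all 96 members reached 5. In bulk RNA such as this, fewer cells of a type and less RNA per cell cannot be told apart.

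Large differences were few and lay on the lower side. None of the 96 members was higher by 1 or more, against 1.75% of all genes, and 5 members were lower by 1 or more (5.21%), against 3.48%. At a difference of 0.5, 5 members were higher (5.21%), against 11.0% of all genes, and 20 were lower (20.8%), against 17.2%. The lower shares were thus near those of all genes. Among the 63 members whose mean level reached 7, 17.5% were lower by 0.5 or more, against 24.2% of all genes at that level, so the order turned. The 5 members lower by 1 or more were Mrpl50, Timm8a1, Mrpl18, Mrpl39 and Mrpl51, and the 5 higher by 0.5 or more were Mrps28, Tomm34, Mrpl10, Mrps24 and Mrps12. Among the 88 members with 3 or more probe sets, 11 had every probe set below 0 and 3 had every probe set above 0, where the shares over all such genes were 5.62% and 4.71%. These 11 were Mrpl16, Mrpl23, Mrpl44, Mrpl48, Mrpl49, Mrpl51, Mrps17, Mrps33, Timm8a1, Timm23 and Tomm20, and the 3 were Mrpl28, Mrps34 and Tomm7. Members had fewer probe sets per gene than the background, with 589 for the 96 members and 188962 for the 16541 genes. A gene with fewer probe sets has all of them on 1 side more readily. The part of probe set number in these shares was not tested.

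Promoter sequences are shown for the members at either end, the 5 lowest and those with a window among the 5 highest, so that they can be read beside the values that follow. RefSeq windows (assembly GRCm38.p6, 250 bases before to 50 after a start) were found for 85 of the 96 members. The stretches below are the bases just before the most upstream start, at most 150, and they end where a neighbouring gene starts on the other strand. Capitals mark matches, on either strand, to GCGCATGCG (NRF1), CCGGAAGT (ETS factors such as GABPA) or ATGGCGGC (YY1). The genes lower by 1 or more come first: Mrpl50 (chr4:49521084-49521175, minus strand), Mrpl18 (chr17:12916092-12916241, minus strand), Mrpl39 (chr16:84735245-84735394, minus strand), Mrpl51 (chr6:125192050-125192199, plus strand) and Timm8a1 (chrX:134541671-134541820, minus strand).
Mrpl50: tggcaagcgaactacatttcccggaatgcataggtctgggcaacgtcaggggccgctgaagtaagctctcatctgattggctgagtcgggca
Mrpl18: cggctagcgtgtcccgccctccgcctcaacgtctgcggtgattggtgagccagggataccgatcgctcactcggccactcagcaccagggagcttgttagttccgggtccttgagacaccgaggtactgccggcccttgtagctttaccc
Mrpl39: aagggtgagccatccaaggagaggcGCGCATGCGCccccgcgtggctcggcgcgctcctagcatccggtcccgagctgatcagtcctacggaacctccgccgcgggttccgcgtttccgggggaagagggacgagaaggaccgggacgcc
Mrpl51: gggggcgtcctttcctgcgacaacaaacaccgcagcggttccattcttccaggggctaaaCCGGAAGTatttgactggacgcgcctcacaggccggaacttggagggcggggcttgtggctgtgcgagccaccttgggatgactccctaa
Timm8a1: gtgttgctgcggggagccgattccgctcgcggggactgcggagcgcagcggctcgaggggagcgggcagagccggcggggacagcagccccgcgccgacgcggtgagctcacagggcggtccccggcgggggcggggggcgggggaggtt

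Members higher by 0.5 or more with a window were Mrpl10 (chr11:97041432-97041581, plus strand), Mrps12 (chr7:28741822-28741967, minus strand), Mrps24 (chr11:5707702-5707851, minus strand) and Tomm34 (chr2:164071170-164071319, minus strand).
Mrpl10: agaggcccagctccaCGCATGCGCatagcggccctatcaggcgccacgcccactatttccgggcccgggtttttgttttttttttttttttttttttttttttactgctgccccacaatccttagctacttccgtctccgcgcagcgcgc
Mrps12: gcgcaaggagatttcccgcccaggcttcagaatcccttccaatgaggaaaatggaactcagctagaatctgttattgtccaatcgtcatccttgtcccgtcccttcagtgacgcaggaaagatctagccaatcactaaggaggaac
Mrps24: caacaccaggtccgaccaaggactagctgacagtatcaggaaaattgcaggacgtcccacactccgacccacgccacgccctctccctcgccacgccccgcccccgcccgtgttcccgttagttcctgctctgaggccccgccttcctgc
Tomm34: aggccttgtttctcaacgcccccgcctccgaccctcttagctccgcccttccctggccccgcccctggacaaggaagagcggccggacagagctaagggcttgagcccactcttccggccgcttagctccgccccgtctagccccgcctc

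In the stretches shown, the NRF1 letters stood before Mrpl39, which was lower, and before Mrpl10, which was higher, and the ETS letters before Mrpl51. Outside these stretches, the windows also held YY1 letters for Mrpl50 and ETS letters for Mrpl18. The windows of Timm8a1, Mrps12, Mrps24 and Tomm34 held none of the 3 motifs. A match is a description of letters, not a site in use. In the whole windows, at least 1 of the 3 motifs was present in 34 of 93 member windows (36.6%) and in 9.78% of 21263 windows of protein-coding genes. NRF1 letters were in 8.60% of member windows and 2.35% of all, ETS letters in 17.2% and 5.15%, and YY1 letters in 15.1% and 3.02%. TATAAA was in 7.53% and 12.6%. Bases 150 to 1 before the start had a median GC content of 60.7% in members and 58% over all. The 34 members with a motif had a median difference of −0.03 and the 51 without −0.22, whereas over all 12470 genes with a window whose mean level reached 5 those with a motif were at −0.20 and those without at −0.01. Within Mrpl genes the medians were −0.19 with and −0.32 without a motif, and within Mrps genes 0.08 in both.

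Within the ribosome, the genes of the 2 subunits lay apart. The 46 Mrpl genes, named for the large subunit, which joins amino acids, had a median difference of −0.25 (SD over genes 0.45), and 34 of them (73.9%) were below 0, against 52.7% of all genes. The 28 Mrps genes, named for the small subunit, which decodes the messenger RNA, had a median of 0.10 (SD 0.39), and 10 of them (35.7%) were below 0. With 1 array per condition, the gap between both medians was not tested. Of the Mrpl genes, 12 (26.1%) were lower by 0.5 or more and 1 (2.17%) was higher, against 17.2% and 11.0% of all genes. For the Mrps genes both counts were 3 (10.7%), below or near those shares. The Mrps median turned to −0.02 with the mean over probe sets and to −0.01 with the highest-level probe set. It stayed above the Mrpl median in both. In these settings 14 and 15 of the 28 Mrps genes were below 0, and 32 and 31 of the 46 Mrpl genes. Over single probe sets, 59.5% of those of Mrpl genes, 51.2% of Mrps and 52.9% of all genes were below 0. By probe sets, the Mrps share was thus near that of all genes. Sorted by position in the ribosome rather than by name, with Mrps30 and Mrps18a, which human structures place in the large subunit, moved there, Mrpl55 kept with the large subunit and Mrps36 left out as not placed, the medians were −0.23 for 48 large subunit genes and 0.08 for 25 small subunit genes.

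**Figure D1:**
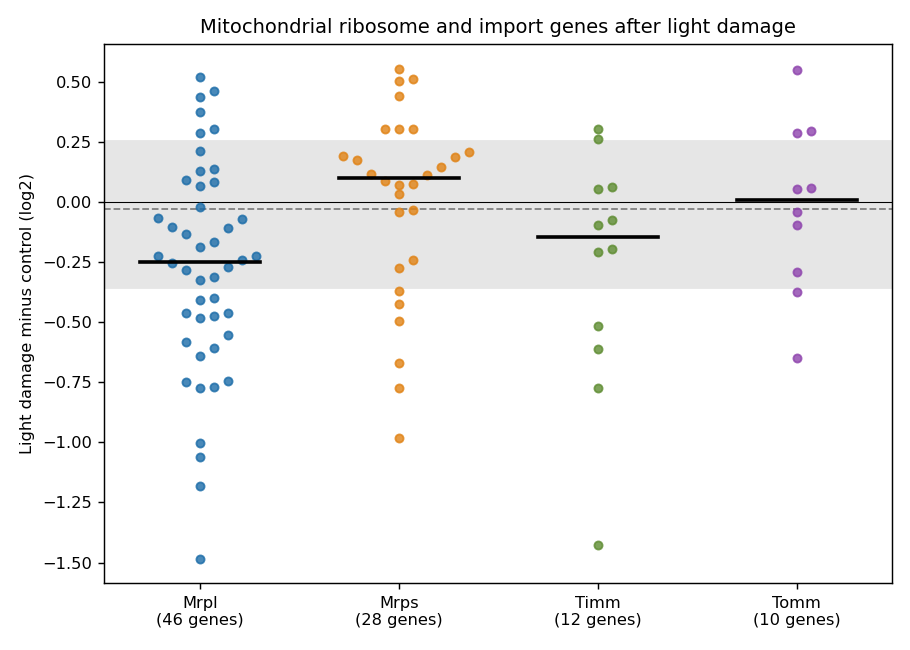
Light damage minus control difference (log2, y axis) of each of the 96 member genes as a point, by symbol group (x axis), with a thick line at the group median. The grey band spans the quartiles of all 16541 genes and the dashed line their median. Most points of each group lie within the band or near it, the Mrpl median is −0.25 and the Mrps median is 0.10.

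The medians of both subunits were also read within steps of level and, separately, within classes of genomic surroundings. Over all genes the median difference moved with level, from 0.02 at mean levels of 6 to 7 to −0.14 at 8 to 9. In the same steps of 6 to 7, 7 to 8 and 8 to 9, the Mrpl medians were −0.30, −0.19 and −0.47, and the Mrps medians were 0.03, 0.18 and 0.07. Differences over all genes also moved with gene density. The median over all genes was −0.15 for genes with the fewest protein-coding neighbours (0 to 10 within 500 kb on either side), −0.05 for those with 11 to 22 and 0.08 for those with the most (23 to 71). From the sparsest of these 3 classes to the densest, the Mrpl medians were −0.55, −0.25 and −0.17 and the Mrps medians were 0.09, 0.19 and 0.07. The Mrpl genes had a median of 22.5 such neighbours and the Mrps genes 15.5. The Mrpl median lay below the Mrps median in each of these steps and classes, with 5 to 23 genes behind a median. Whether level or surroundings play a part in the gap was not tested. By the median over genes, proteins with a bacterial counterpart and those found in mitochondria alone did not part in the same way. The medians were −0.23 (28 genes) and −0.27 (17 genes) in the large subunit. In the small subunit they were 0.07 (15 genes) and 0.08 (10 genes). Other measures lay further apart: the means were −0.21 and −0.40 in the large and 0.04 and −0.11 in the small subunit. Of the large subunit genes, 1 (3.57%) and 3 (17.6%) were lower by 1 or more, against 3.48% of all genes. Whether these kinds differ was not tested.

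Among large subunit genes, Mrpl50, Mrpl18, Mrpl39 and Mrpl51 made up the 4 that were lower by 1 or more. Mrpl50, a protein of the mitochondrial ribosome with no bacterial counterpart, stood at 7.36 on the control and 5.87 on the light damage array. Its difference was −1.48 ± 0.07 (SD over probe sets of the same arrays, n = 2), a 2.80-fold lower signal. Both of its probe sets were lower by a like amount, at −1.54 and −1.43. An offset of 32 added before the log2 moved the difference of Mrpl50 to −1.11. Mrpl18 belongs to the family of ribosomal protein L18, which in bacteria contacts the 5S ribosomal RNA. Mrpl18 went from 8.80 to 8.19, and its difference was −1.18 ± 0.64 (n = 5 probe sets). Of these, 4 were below 0 and the remaining one was at 0.14. Since a level is the median of all probe sets on 1 array and the difference the median of paired probe sets, both need not match.

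Mrpl39, another subunit without a bacterial counterpart, had levels of 8.83 and 7.77 and a difference of −1.06 ± 0.85, with 9 of 11 probe sets below 0. Its probe set with the highest mean over both arrays gave −0.13, and the next 2 by that mean gave −1.09 and −1.11. Mrpl51 stood at 8.60 in the control and 7.41 after light damage, a difference of −1.003 ± 0.29 over 4 probe sets, with all 4 below −0.5. Of the genes that followed, Mrpl36, whose bacterial counterpart is ribosomal protein L36, had −0.77 ± 0.94 (3 of 4 probe sets below 0) and Mrpl35, the L35 counterpart, had −0.77 ± 1.09 (5 of 6). Mrpl2 (−0.75 ± 0.72) and Mrpl1 (−0.74 ± 0.60) are counterparts of bacterial L2 and L1, and they lay below 0 in 6 of 7 and 7 of 10 probe sets. In these genes the spread between probe sets was as large as the difference or nearly so.

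On the other side of the large subunit, 12 Mrpl genes lay above 0, and 1 of them reached 0.5. It was Mrpl10, which anchors the stalk where translation factors bind, with levels of 6.95 and 7.77 and a difference of 0.52 ± 0.38 (6 of 7 probe sets above 0). Mrpl4 followed at 0.46 ± 0.29, with 9 of 10 probe sets above 0, then Mrpl13 at 0.44 ± 0.62 (4 of 7, with levels of 6.91 and 6.88) and Mrpl28 at 0.38 ± 0.30 (5 of 5). The stalk protein gene Mrpl12 stood at −0.13 ± 0.33, with levels of 7.27 and 7.26, and Mrpl11, at the stalk base, at −0.40 ± 0.48. These values of the stalk genes lay on both sides of 0, for Mrpl12 and Mrpl11 within the SD over probe sets.

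Small subunit genes stayed within 1 of 0 without exception. Mrps33, a subunit without a bacterial counterpart, differed most among them. It stood at 7.53 in the control and 6.59 after light damage, with a difference of −0.98 ± 0.45 and all 6 probe sets below −0.5. Mrps17, the counterpart of bacterial S17, went from 7.10 to 6.61 (−0.77 ± 0.32), with 5 of 5 probe sets below 0. Mrps31 had levels of 7.34 and 6.66 and a difference of −0.67 ± 0.64 (8 of 9 below 0), and Mrps5, the S5 counterpart, stood just short of the limit at −0.50 ± 0.99, or at −1.52 in its highest-level probe set.

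Higher values in the small subunit belonged to Mrps28, Mrps24, Mrps12 and Mrps34. Mrps28 went from 6.66 to 7.54, a difference of 0.55 ± 0.53, but −0.03 in its highest-level probe set. Mrps24, the counterpart of bacterial S3 at the entry of the messenger RNA channel, differed by 0.51 ± 0.56 (3 of 4 probe sets above 0). Mrps12, the counterpart of S12 at the decoding centre, went from 6.98 to 7.48, or 0.50 ± 0.14 over 2 probe sets. Mrps34 was at 0.44 ± 0.32 with 4 of 4 probe sets above 0. One gene shows how single probe sets can part from the rest: Mrps14 had a difference of 0.03 ± 1.73, since 1 of its 4 probe sets went from 7.88 to 4.53 and the remaining ones lay between −0.03 and 0.21.

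**Figure D2:**
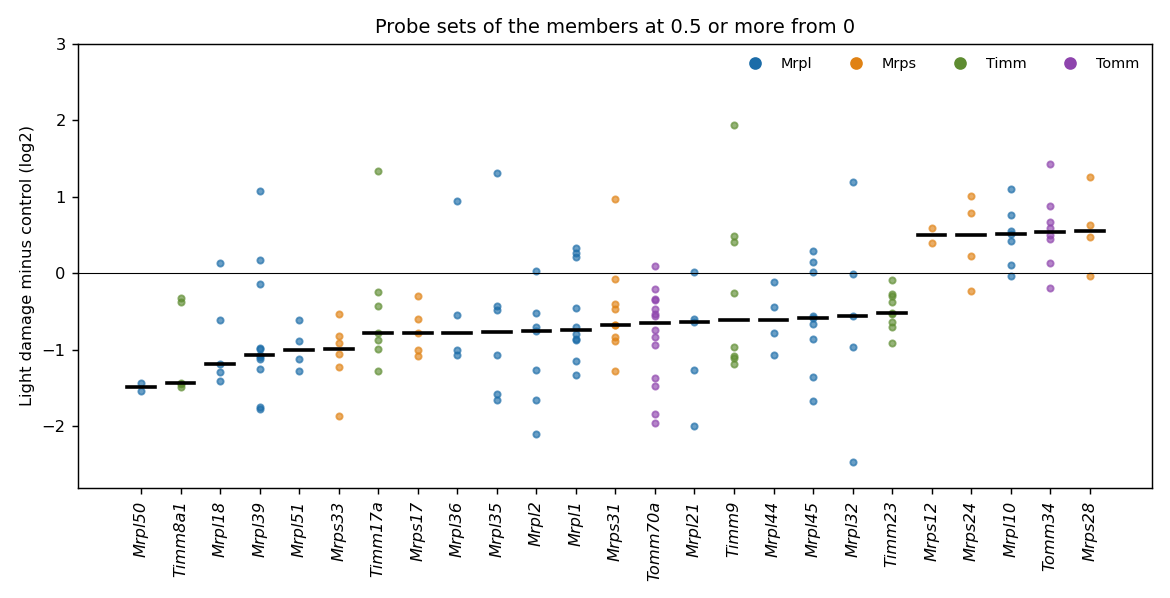
Differences of single probe sets (points, log2, y axis) for the 25 members whose difference was 0.5 or more in either direction (x axis, sorted), with a thick line at each gene's median and colours for the symbol groups. The 20 genes on the left are lower and the 5 on the right higher, and all probe sets of Mrpl50, Mrpl51 and Mrps33 lie below −0.5 while those of Mrpl32 or Timm9 spread over both sides of 0.

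Of the 12 Timm genes, 8 (66.7%) lay below 0, against 52.7% of all genes. Of these 4 (33.3%) were lower by 0.5 or more, against 17.2% of all genes. No Timm gene was higher by 0.5 or more, against 11.0% of all genes. Timm8a1 encodes a small Tim chaperone, and loss of its human counterpart causes a syndrome of deafness and dystonia. All 5 of its probe sets were below 0, at −1.48, −1.45, −1.43, −0.37 and −0.32. The difference of −1.43 ± 0.61 therefore stands for part of the probe sets. The gene's median levels were 6.09 and 5.77, which differ by −0.32, and an offset of 32 added before the log2 moved the difference to −0.72. Timm8a1 lies on the X chromosome, whose genes had a median difference of −0.14 (543 genes) against −0.03 for autosomal genes. Timm17b, the other X-linked member, stood at −0.08 ± 0.52.

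In the TIM23 complex, the channel gene Timm23 had levels of 8.98 and 8.79 and a difference of −0.52 ± 0.25, with 9 of 9 probe sets below 0. Timm17a, a core subunit beside the channel, had levels of 8.71 and 7.56 and a difference of −0.78 ± 0.86 (6 of 7 below 0). The presequence receptor gene Timm50 was at 0.06 ± 0.35 (levels 7.66 and 7.63), and Timm44, which ties the import motor to the channel, was at −0.20 ± 0.72 with 12 of 15 probe sets below 0. Core subunits of 1 complex thus did not share a size of difference.

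Timm22, the core of the translocase for carrier proteins, had levels of 7.72 and 7.38 and a difference of −0.21 ± 0.54 (5 of 6 probe sets below 0). The small Tim chaperones, which act as rings of Timm9 with Timm10 or Timm8a1 with Timm13, were split. Timm9 stood at −0.61 ± 1.11 with probe sets from −1.19 to 1.94 and 0.42 in its highest-level one, and its partner Timm10 at 0.05 ± 0.53. Timm13 was at 0.30 ± 0.51, with 3 of 5 probe sets above 0, where its partner Timm8a1 was at −1.43. By the difference of their levels, Timm13 was at −0.09 and Timm8a1 at −0.32, so this pair did not split by that measure. Timm8b was at −0.10 ± 1.02. Timm8a2, a close copy of Timm8a1 that may share signal with it, was at 0.26 ± 0.26 over 2 probe sets. Levels of Timm9, Timm8a1 and Timm8a2 lay between 5.3 and 6.1 on both arrays, where signal over background limits a difference.

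**Figure D3:**
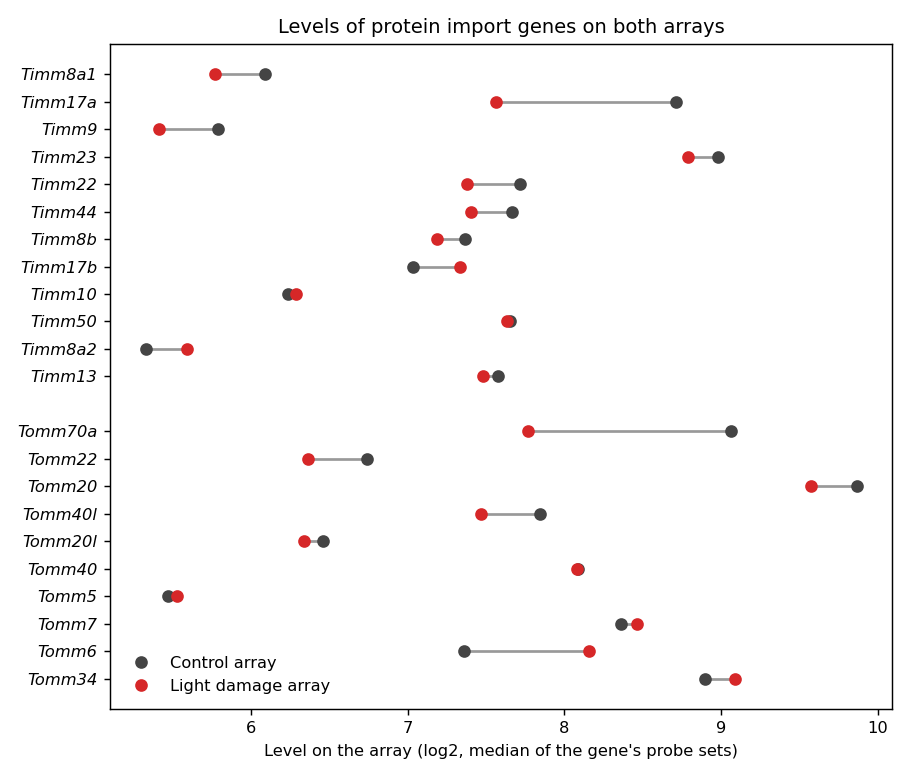
Levels of the Timm genes (top) and Tomm genes (bottom) on the control array (dark points) and the light damage array (red points), on the log2 scale (x axis), each the median of the gene's probe sets and each group sorted by the gene's difference. Timm17a (8.71 to 7.56) and Tomm70a (9.06 to 7.77) show the widest gaps toward the lower side and Tomm6 (7.36 to 8.16) toward the higher.

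The 10 Tomm genes were split evenly, with 5 (50%) below 0, against 52.7% of all genes, and 5 above. All 4 genes of receptors or receptor-like subunits were below 0. Tomm70a, the receptor that docks Hsp70 and Hsp90 with carrier precursors, had levels of 9.06 and 7.77 on the control and light damage arrays, and its difference was −0.65 ± 0.62 (13 of 14 probe sets below 0), while the difference of its 2 levels was −1.29. Tomm22, the central receptor, went from 6.74 to 6.37 (−0.38 ± 0.22), Tomm20, which binds presequences, went from 9.87 to 9.58 (−0.29 ± 0.15, 3 of 3 below 0), and its paralogue Tomm20l was at −0.04 ± 0.35.

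The channel gene Tomm40 stood at 8.09 on the control and 8.08 on the light damage array, with a difference of 0.06 ± 0.63 over 17 probe sets, and its paralogue Tomm40l was at −0.10 ± 0.71. All 3 small subunits, which stabilise the complex, lay above 0. Tomm6 had a difference of 0.30 ± 0.32, with levels of 7.36 and 8.16, Tomm7 had 0.29 ± 0.50 (3 of 3 probe sets above 0) and Tomm5 had 0.06 ± 0.23. Tomm34, a cytosolic cochaperone that binds Hsp70 and Hsp90 and is no subunit of the complex, showed the highest value of the group, with levels of 8.90 and 9.09, a difference of 0.55 ± 0.48 and 7 of 8 probe sets above 0. The medians of the receptor group and the small subunits were −0.33 (4 genes) and 0.29 (3 genes), but not every gene kept its side: with the highest-level probe set Tomm20l was at 0.16 and Tomm6 at −0.0050, and with the mean over probe sets Tomm20l was at 0.01. For most of these genes the difference was no larger than the SD over probe sets or close to it.

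Genes that serve the same processes under other names mostly had medians below 0. Their counts stand against 52.7% of all genes below 0, 17.2% lower by 0.5 or more and 11.0% higher. Of 12 mitochondrial translation factors, 11 (91.7%) were below 0, 4 (33.3%) reached −0.5 and none reached 0.5, with a median of −0.36. Mtif2, the initiation factor, went from 8.86 to 7.73 (−1.21 ± 0.83, none of 14 probe sets above 0), Gfm1, an elongation factor, had −0.80 ± 0.92 and Guf1, a translational GTPase, had −0.69 ± 0.82. The list of mitochondrial aminoacyl-tRNA synthetases had a median of −0.32, with 17 of 21 genes (81.0%) below 0. Of these genes 3 (14.3%) were lower by 0.5 or more, a smaller share than among all genes, and none was higher. The list also held amidotransferase subunits, and synthetases that serve the cytosol too. Gars (−0.70 ± 0.65), of the latter kind, was among the genes lower by 0.5 or more. Ribosome assembly and RNA factors had a median of −0.33, with 7 of 23 (30.4%) lower by 0.5 or more and none higher. Gtpbp10, a GTPase of large subunit assembly, was at −1.10 ± 0.55 (0 of 12 probe sets above 0), the ribosomal RNA methyltransferase gene Nsun4 at −1.03 ± 1.51, and Lrpprc, which stabilises mitochondrial messenger RNA, at −0.93 ± 0.68.

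Import motor, processing and quality control genes had a median of −0.30, with 6 of 19 (31.6%) lower by 0.5 or more, against 17.2% of all genes, and none higher. The inner membrane protease genes Yme1l1 (−1.23 ± 0.64) and Oma1 (−1.12 ± 0.42, none of 8 probe sets above 0) and the matrix chaperonin Hspd1 (−0.92 ± 0.70) differed most. Sorting and insertion genes had a median of −0.39, with 4 of 15 (26.7%) lower by 0.5 or more and 1 (6.67%) higher. The higher gene was the outer membrane import gene Mtx1 (0.98 ± 0.27, 7 of 7 probe sets above 0), whose partner Mtx2 was at −0.79 ± 0.64. That list also held general cytosolic chaperones, and Hsp90aa1 (−0.88 ± 0.46) was among its genes lower by 0.5 or more. Of 14 genes of the mitochondrial unfolded protein response, 6 (42.9%) were lower and 2 (14.3%) higher by 0.5 or more. The higher ones were the stress transcription factors Ddit3 (1.11 ± 0.30) and Atf5 (0.85 ± 0.40), and the median of the list was −0.44. It shares genes with the import motor and processing list, and some, such as Hspd1, count as lower in both. Cytosolic ribosomal protein genes, by contrast, had a median of 0.16 (65 genes), and respiratory chain and ATP synthase genes had −0.06 (82 genes). Ribosomal proteins of mitochondria that carry other symbols were split, from Ptcd3 at −0.69 ± 0.75 and Dap3 at −0.42 ± 0.62 to Gadd45gip1 at 1.01 ± 0.45 over 2 probe sets.

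**Figure D4:**
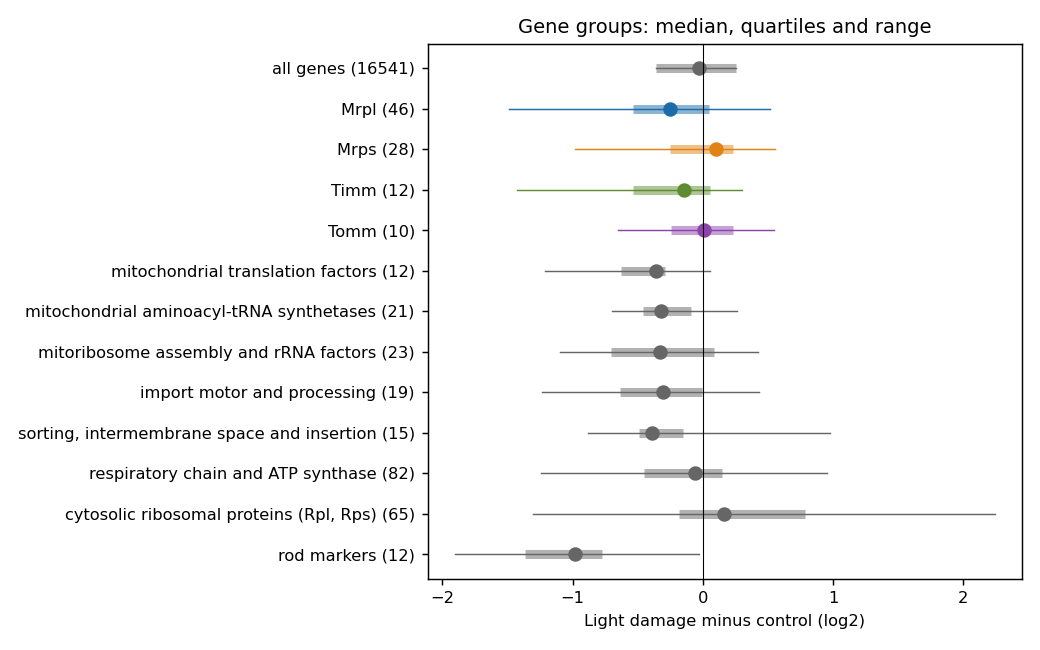
Light damage minus control difference (log2, x axis) for gene groups (y axis, with the number of genes whose mean level reached 5). Points are medians, thick bars quartiles and thin lines the range over genes, except for all genes, where only quartiles are drawn. Lists of mitochondrial translation, assembly and import genes have medians from −0.39 to −0.30, the Mrps and Tomm genes 0.10 and 0.01, and rod markers −0.98.

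Regulators of mitochondrial genes were read beside the members. Tfam, which packs mitochondrial DNA and starts its transcription, stood at 7.30 in the control and 5.65 after light damage, a difference of −1.44 ± 0.74 with none of 9 probe sets above 0. Ssbp1, the single-strand binding protein of mitochondrial DNA, went from 9.56 to 8.31 (−1.25 ± 0.30, none of 5 above 0), and the transcription factor Tfb2m went from 7.68 to 6.77 (−0.92 ± 0.60, none of 12). The nuclear factors that bind promoters of such genes were nearer to 0: Nrf1 was at −0.32 ± 0.73, Gabpa at −0.37 ± 0.41, Gabpb1 at −0.41 ± 0.64, Gabpb2 at −0.54 ± 0.75 and Yy1 at −0.30 ± 0.46. The coactivator Ppargc1a was at −0.61 ± 0.82 and Ppargc1b at −0.02 ± 0.84, while Pprc1 was at 0.68 ± 0.99. Myc, which the study picked on these arrays, was at 1.41 ± 0.67 over 3 probe sets, from a control level of 4.92. The receptor Esrra (0.12 ± 0.50), the mitochondrial RNA polymerase gene Polrmt (0.38 ± 0.44), the DNA polymerase genes Polg (−0.08 ± 0.77) and Polg2 (0.24 ± 0.65) and the helicase gene Twnk, listed as Peo1 (−0.46 ± 0.37), completed the list. Its median was −0.32 over 17 genes, with 5 (29.4%) lower and 2 (11.8%) higher by 0.5 or more.

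Many members start close to a gene that runs the other way. A protein-coding neighbour on the opposite strand started within 1000 bases upstream of 27 of the 85 members with a window (31.8%), and of 10.7% of the 12470 genes with a window. One such stretch lies between a large and a small subunit gene, Mrpl46 and Mrps11, whose starts are 42 bases apart (chr7:78783090-78783130, plus strand, written in the direction of Mrps11).
Mrpl46 to Mrps11: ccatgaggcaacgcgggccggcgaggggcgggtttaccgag

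Mrpl46 was at −0.22 ± 0.84 and Mrps11 at 0.30 ± 0.34, on opposite sides of 0. Mrpl18 (−1.18) and Tcp1, a subunit of the cytosolic chaperonin whose start lies 238 bases away, were both lower by 1 or more. Tcp1 stood at 9.47 in the control and 8.37 after light damage, a difference of −1.05 ± 0.62 over 15 probe sets. Mrps12 and Sars2, a mitochondrial seryl-tRNA synthetase 147 bases away, were at 0.50 and 0.26. Timm23 and Parg (58 bases) were at −0.52 and −0.54, and Timm8b and Sdhd (52 bases), a subunit of respiratory complex II, were at −0.10 and −0.35. Other pairs parted: Mrpl51 was at −1.003 and Ncapd2, 614 bases away, at 0.11, Mrps27 was at 0.11 and Ptcd2 at −0.997 ± 0.69, and Mrps18b was at −0.27 and Ppp1r10 at 0.75. Over the 26 pairs, 18 (69.2%) had the same sign, against 66.3% of all 617 such pairs, and Pearson's r was 0.21 against 0.33, across pairs of genes read on the same 2 arrays.

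**Figure D5:**
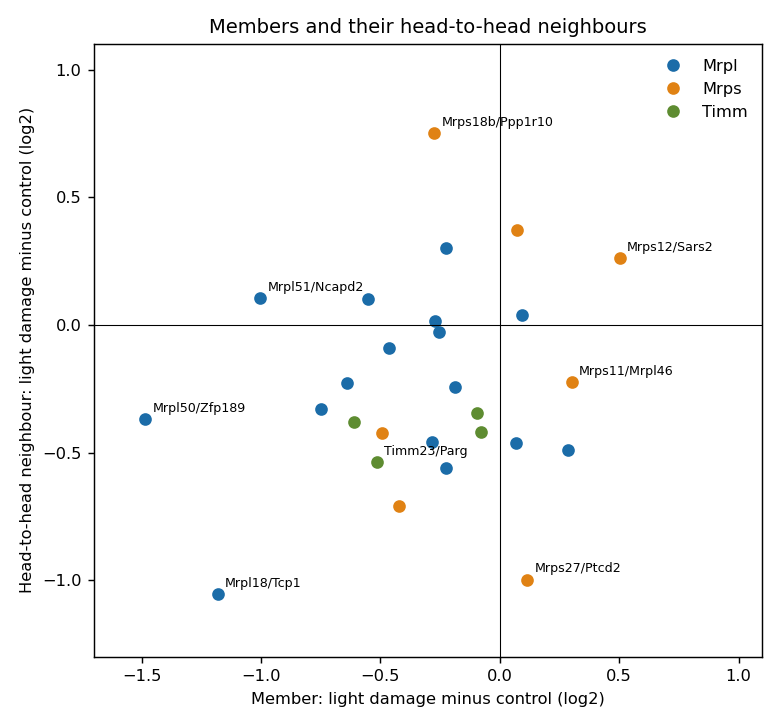
Difference of each member (x axis, log2) and of its head-to-head neighbour (y axis, log2), both light damage minus control, with colours for the symbol groups and names for 8 pairs. Mrpl18 and Tcp1 lie at −1.18 and −1.05, while Mrpl51 and Ncapd2 lie at −1.003 and 0.11. The pair of Mrpl46 and Mrps11 is drawn from both sides.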

How the data were processed

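MG from undamaged and light damaged mouse retinas were measured on 1 array per condition. The authors normalized the arrays with Affymetrix Power Tools and deposited log2 values per probe set. Sources used here do not state background correction, summary method, versions or build. Platform annotation gave 1 gene for 212138 (87.8%) of 241576 probe sets. The 4672 with several genes and the 24766 with none were left out. Gene values were medians of the differences of their probe sets, and SDs are over probe sets and technical. The 16541 genes whose mean level reached 5 served as background. All 96 member symbols matched RefSeq. Signals of pseudogenes (7 such symbols in RefSeq) and paralogues may be shared.

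The naming rule took the 4 highest and 4 lowest members of each symbol group, members past 1, all Timm and Tomm genes, up to 3 genes of each other list and all regulators. Mrpl1, Mrpl2, Mrpl11, Mrpl12, Mrpl32, Mrpl35, Mrpl36, Mrps14, Rlbp1, Sox9, the genes with all probe sets on one side and the head-to-head pairs were named after their values were seen. Members and lists were chosen with earlier results of these data known. Calculations used Python 3.11.15, numpy 2.4.6, pandas 2.3.3 and statsmodels 0.14.6, and were tested on simulated data. Alternatives were quantile normalization, median centring, loess trend removal (span 0.3), an offset of 32, the mean or highest-level probe set, other level limits, 3 or more probe sets and updated symbols.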

Additional observations from a re-analysis of the deposited data

How the results depend on the processing

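Other settings were 10 alternatives and 1 added after seeing the data, the difference of both levels. The median of the ribosomal protein genes, −0.12 as deposited, ran from −0.16 (mean over probe sets) to −0.05 (quantile normalization and loess), that of the Timm genes, −0.15, from −0.28 (highest-level probe set) to −0.09 (quantile), and that of the Tomm genes, 0.01, from −0.06 (both levels) to 0.16 (highest-level probe set). The Mrpl median lay below the Mrps median in each, by 0.27 (offset) to 0.42 (level of 7 or more). Members lower by 1 or more, 5 as deposited (5.21% against 3.48% of all genes), numbered 3 after quantile normalization (3.13% against 2.59%), 3 after loess (3.13% against 2.65%), 3 with the mean (3.13% against 3.10%), 2 with the offset of 32 (2.08% against 1.87%), 8 with the highest-level probe set (8.33% against 7.45%), 3 of 63 at a level of 7 or more (4.76% against 5.21%) and 8 from both levels (8.33% against 4.95%). Members higher by 0.5 numbered 12 with the highest-level probe set (12.5% against 20.2%) and 1 with the offset (1.04% against 6.35%). The former setting gave 2 higher by 1 (2.08% against 5.58%). At a level of 7 or more, 11 of 63 members were lower by 0.5 (17.5% against 24.2%). Of 525 values of 55 named genes under the 10 alternatives, 10 changed sign. With the highest-level probe set these were Timm9 (0.42), Mrps28 (−0.033), Timm44 (0.09), Timm50 (−0.36), Tomm20l (0.16), Tomm40l (0.16) and Tomm6 (−0.0050), and with the mean over probe sets Mrps14 (−0.77), Timm8b (0.10) and Tomm20l (0.01). The added setting lies outside that count. By the difference of both levels, 16 of the 96 members had the other sign, Timm13 and Timm17b among them. No paired analysis was possible because each group holds 1 array.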

Other observations

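Some genes of the same machinery stood under older symbols in the annotation and so lay outside the naming rule. Mrpl42, listed as D10Ertd322e, went from 9.76 in the control to 7.95 after light damage, a difference of −1.72 ± 1.40 in which 2 of 3 probe sets were below 0 and the remaining one was at 0.67. Timm29 (1810026J23Rik) was at −0.38 ± 0.07 over 2 probe sets, Timm21 (1700034H14Rik) at −0.32 ± 1.46, Timm10b (Fxc1) at −0.16 ± 1.00 over 20, Mrpl57 (Mrp63) at −0.25 ± 0.91 and Mrpl58 (Ict1) at 0.26 ± 0.72. Of the probe sets annotated to a member and another gene, 3 of Ccdc142 and Mrpl53 had a median difference of 0.92 (5.92 to 6.81). Another 3, which name the same genes in the other order, had a median of −0.03 (7.63 to 7.51). The probe set of Mrps6 and Slc5a3 was lower (7.56 to 6.67). All other such annotations lay between −0.21 and 0.32.

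Of the subunits that the mitochondrial ribosome translates, 7 had a value from 1 or 2 probe sets each. ND1 was at −0.19, ND2 at −0.22, COX1 at 0.03, COX3 at −0.25 and ATP6 at −0.31, with control levels from 13.0 to 14.1. ND6, the 1 subunit gene encoded on the other strand of mitochondrial DNA, went from 9.07 to 11.6 in its only probe set, and ND4L from 9.13 to 10.8.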
